A study of Homo sapiens with 9 samples.

Results

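The microRNA genes of 2 clusters known from human pluripotent cells were followed through the first days of differentiation. They are MIR302A, MIR302B, MIR302C, MIR302D and MIR367 of the MIR302 cluster, and MIR371A, MIR372 and MIR373 of the MIR371 cluster. The members were taken by gene symbol from a table of RPKM values (read counts scaled by transcript length and by library size), and all 8 were found among the 443 microRNA symbols and 21417 gene symbols of the table. All 8 passed the minimum of a mean of 0.5 RPKM over the 9 libraries and were tested with 14473 genes in all. The study compared 9 libraries of H9, an established human embryonic stem cell line, 3 in each of 3 groups. The hESC group is undifferentiated H9 at day 0, kept on Matrigel in the medium mTeSR1. For neuroectoderm, cells were taken at day 5 after 200 nM NOGGIN, which blocks BMP signals, and 10 μM SB431542, an inhibitor of activin and Nodal receptors. Mesendoderm at day 5 was made in mTeSR1 with the growth factor BMP4 at 5 ng/ml. All groups come from this 1 line, and the labels do not say that the libraries of a group were separate cultures, so p-values rest on the spread among these libraries only, and that spread may be technical. In bulk RNA, fewer cells that hold a transcript and less of it per cell cannot be told apart.

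MicroRNAs are cut from a hairpin in a longer primary transcript, first by DROSHA with DGCR8 in the nucleus and then by DICER1 in the cytoplasm, and the mature strand guides an Argonaute protein to messenger RNAs that pair with its seed. The MIR302 and MIR371 clusters are best known from embryonic stem cells and germ cell tumours, where their shared seed is tied to rapid passage from G1 to S phase and to maintenance of the undifferentiated state. The rows of the table have the length of a hairpin and come from total RNA, so a value does not separate mature microRNA from the hairpin, the primary transcript or its host.

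The mature 3′ strands show how the 8 genes fall into seed groups. Sequences are those of RefSeq on the build GRCh38.p14, matched by symbol for 8 of 8 members, whereas the deposited values were made on hg19. Each is written 5′ to 3′ with its seed, bases 2 to 8, in capitals.
miR-302a-3p: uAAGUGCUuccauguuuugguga
miR-302b-3p: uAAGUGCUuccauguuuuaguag
miR-302c-3p: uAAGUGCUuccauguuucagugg
miR-302d-3p: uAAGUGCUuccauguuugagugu
miR-372-3p: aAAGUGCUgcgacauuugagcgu
miR-373-3p: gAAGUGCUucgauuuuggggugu
miR-371a-3p: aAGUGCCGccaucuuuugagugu
miR-367-3p: aAUUGCACuuuagcaaugguga
The first 17 bases of miR-302a-3p to miR-302d-3p are identical, and their hairpins are 73% to 82% identical, so reads of 1 of these 4 genes can match another; how such reads were assigned is not given in the sources used here. miR-372-3p and miR-373-3p carry the same seed, AAGUGCU, from another chromosome. Among RefSeq mature strands the seed belongs to 12 genes, of which 9 are in the deposited file. miR-371a-3p has a seed of its own. miR-367-3p has the seed AUUGCAC, which 7 genes share, the miR-92 and miR-25 genes among them.

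The 5 hairpins of the MIR302 cluster lie within 684 bases, chr4:112647874-112648557 on the minus strand of GRCh38.p14. In GENCODE v29 on the same build they lie on the opposite strand within introns of LARP7, which codes for a protein that binds 7SK RNA, and on the same strand within a long noncoding host transcript. MIR302A, MIR302C, MIR302D and MIR367 are intronic in the host, while 45 of the 73 bases of the MIR302B hairpin lie in an exon of it. The 3 hairpins of the MIR371 cluster lie within 1099 bases, chr19:53787675-53788773 on the plus strand. MIR371A overlaps MIR371B and, like MIR372, an exon of a noncoding gene, all on the opposite strand, and MIR373 overlaps no other annotated gene. Whether strand was used in counting is not given in the sources used here, so reads from either strand cannot be told apart at MIR371A, MIR372 and the MIR302 genes. The hairpins of MIR302D and MIR302B are shown because their shares of the cluster are described below, with the mature 3′ strand in capitals.
MIR302D: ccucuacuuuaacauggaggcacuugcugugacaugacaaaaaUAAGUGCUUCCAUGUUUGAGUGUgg
MIR302B: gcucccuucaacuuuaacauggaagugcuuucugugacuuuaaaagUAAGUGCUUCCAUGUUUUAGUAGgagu

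The 5 hairpins of the MIR302 cluster lie in a host transcript, so its start is shown too. RefSeq gives the host, MIR302CHG, more than 1 start. The window of the start farther upstream, chr4:112650002-112650301 on the minus strand of GRCh38.p14, covers 300 bases, most of them before the start. Capitals mark the octamer ATGCAAAT, a motif known to be bound by POU family factors.
MIR302CHG: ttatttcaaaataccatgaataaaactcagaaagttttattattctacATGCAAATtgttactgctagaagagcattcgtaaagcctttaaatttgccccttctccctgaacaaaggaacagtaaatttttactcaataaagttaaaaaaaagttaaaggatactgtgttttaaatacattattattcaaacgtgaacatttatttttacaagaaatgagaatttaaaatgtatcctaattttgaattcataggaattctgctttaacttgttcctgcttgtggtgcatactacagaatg
Searched on both strands, the octamer was found at position -202 from the start, and 1.774% of 35116 RefSeq promoter windows of the same length hold it. The window of the other start held TATAAA at position -29, as 11.53% of promoter windows do at any position. The letters CATTGTT, a core motif of SOX factors, were in neither of these windows and in 3.332% of all promoter windows. A match is a run of letters, not a measured binding site.

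Low values moved in steps of what 1 read is worth at a row's length. Of 176 to 218 low values per library, 97.7% to 99.5% came out whole to within 0.1 read. The steps gave denominators of 36800000 to 69750000 reads per library and an estimate of the reads behind each value. On a hairpin of the MIR371 cluster, 3 reads amount to 0.623 to 1.22 RPKM. Most marker genes followed the labels. Summed neuroectoderm markers were 477 to 573 RPKM in neuroectoderm and at most 105 elsewhere, and summed primitive streak and mesoderm markers 284 to 327 RPKM in mesendoderm and at most 25.1 elsewhere. MEIS1 of the neuroectoderm list also rose in mesendoderm (0.0933 to 7.38 RPKM), and SIX3 and LHX2 stayed at 0.0833 and 0.123 RPKM in neuroectoderm. Of 12 pluripotency genes, 9 fell in neuroectoderm and 9 in mesendoderm (3 in mesendoderm with libraries scaled to their small RNA total), beside 22.3% and 18.1% of all genes. GDF3 rose in mesendoderm, from a mean of 2.1 to 10.4 RPKM, and ZFP42 was level there (83.7 and 82.6 RPKM). Markers of trophoblast and amnion summed to 205 to 347 RPKM over 11 genes in mesendoderm, against 10.5 to 13.1 in hESC and 3.36 to 4.63 in neuroectoderm. The list named 14 genes, of which these 11 were in the table. IGFBP3 alone was at 217, 114 and 165 RPKM in mesendoderm replicates 1 to 3, the largest part of the sum. All 9 tested markers of this list rose in mesendoderm, beside 17% of all genes. Most of the 9 were so low in the other groups that they passed the minimum through mesendoderm. The placental hormone gene CGA was at 0.02 to 0.06 RPKM in mesendoderm, and the part of such cells in the values below was not tested. Neuroectoderm replicate 1 was the highest library of its group for 70.9% of 361 tested microRNA rows other than the members, with a median of 1.05 above the other 2 libraries on the log2(RPKM + 1) scale. It was the highest for 29.7% of genes other than small RNA. hESC replicate 2 was the highest of its group for 59.3% of those microRNA rows, with a median of 0.42. Small RNA rows other than microRNAs summed to 4.524e+05, 5.555e+05 and 4.609e+05 RPKM in hESC replicates 1 to 3. They summed to 7.831e+05, 3.539e+05 and 4.873e+05 in neuroectoderm and 3.897e+05, 3.783e+05 and 3.993e+05 in mesendoderm. Every mesendoderm library thus lay below every hESC library in this sum. The members' values are therefore given by library.

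The 5 rows of the MIR302 cluster were below the hESC range in every mesendoderm library and in 2 of the 3 neuroectoderm libraries. MIR302D, the highest of them, stood at 1355, 2209 and 898 RPKM in hESC replicates 1 to 3, at 2058, 93.5 and 330.1 in neuroectoderm and at 122, 149 and 155 in mesendoderm. All mesendoderm libraries lay below all hESC libraries, and neuroectoderm replicate 1 lay within the hESC range while replicates 2 and 3 lay below it. MIR302B, the row with the exonic overlap, was at 1013, 1530 and 661 RPKM in hESC, 1950, 74.5 and 322 in neuroectoderm and 147, 170 and 164 in mesendoderm. Here neuroectoderm replicate 1 was the highest of all 9 libraries.

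MIR302C was at 714, 1359 and 508 RPKM in hESC, at 903, 46.0 and 149 in neuroectoderm and at 127, 106 and 91.5 in mesendoderm. MIR302A was at 502, 904 and 369 RPKM in hESC, at 843, 50.3 and 166 in neuroectoderm and at 84.2, 94.7 and 116 in mesendoderm. MIR367, the member with the miR-92 seed, was far lower than the MIR302 rows per length, at 44.9, 139 and 36.2 RPKM in hESC, 59.8, 2.74 and 14.3 in neuroectoderm and 10.1, 13.2 and 9.59 in mesendoderm. For all of these, hESC and mesendoderm did not overlap, hESC and neuroectoderm did, and replicate 2 was the lowest library of neuroectoderm. The spread between libraries was largest in neuroectoderm, where the highest library exceeded the lowest 16.8-fold for MIR302A and 26.2-fold for MIR302B, against 2.31-fold to 3.84-fold over the 5 rows in hESC and 1.16-fold to 1.38-fold in mesendoderm.

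**Figure D1:**
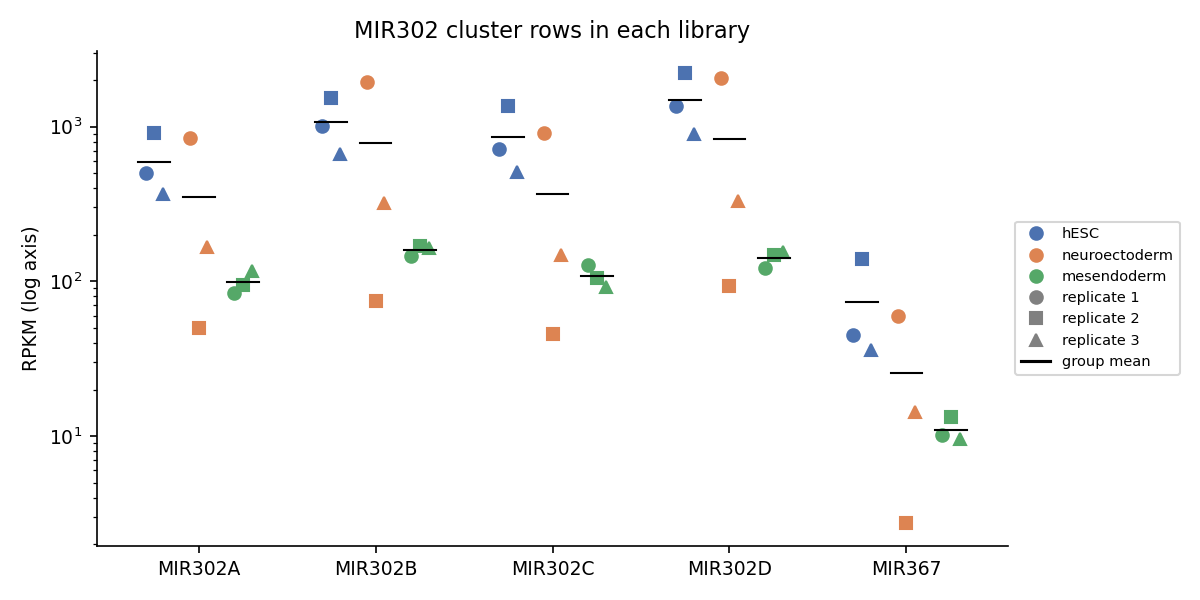
RPKM of the 5 MIR302 cluster rows on a log axis in each of the 9 libraries, with colour for the group, symbol for the replicate and a black line at the group mean. The mesendoderm libraries lie together below hESC, and the neuroectoderm libraries spread from the hESC level (replicate 1, circle) to the lowest values (replicate 2, square).

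The MIR371 cluster was near the limit of detection in all groups. MIR373 was at 3.57, 5.05 and 2.74 RPKM in hESC (10, 16 and 9 reads), at 0.71, 0 and 0 in neuroectoderm (2, 0 and 0 reads) and at 0.31, 0.78 and 1.81 in mesendoderm (1, 2 and 5 reads). MIR371A was at 2.57, 3.25 and 1.57 RPKM in hESC (7, 10 and 5 reads), at 0, 0.21 and 0 in neuroectoderm (0, 1 and 0 reads) and at 0, 0.40 and 1.12 in mesendoderm (0, 1 and 3 reads). For both genes every hESC library lay above every library of the other groups.

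MIR372 differed from its neighbours in 1 library. It was at 2.20, 4.55 and 1.88 RPKM in hESC (6, 14 and 6 reads), at 2.57, 0 and 0.36 in neuroectoderm (7, 0 and 1 reads) and at 1.28, 0.81 and 0.74 in mesendoderm (4, 2 and 2 reads). Neuroectoderm replicate 1 thus lay within the hESC range for MIR372 but below it for MIR371A and MIR373. Of the MIR302 cluster, MIR302A, MIR302C, MIR302D and MIR367 lay within the hESC range in that library and MIR302B above it. A count of 0 in neuroectoderm allows up to 0.623 to 1.10 RPKM, at 3 reads, for these 3 genes. Summed over libraries, the rate of MIR373 reads in neuroectoderm was 0.0505 times that in hESC, with an exact 95% interval of 0.00588 to 0.197 from 2 and 35 reads. The ratio was 0.0402 for MIR371A (0.000973 to 0.248, from 1 and 22 reads) and 0.272 for MIR372 (0.106 to 0.618, from 8 and 26 reads). In mesendoderm the ratios to hESC were 0.248 for MIR373 (0.0994 to 0.544), 0.197 for MIR371A (0.0494 to 0.581) and 0.334 for MIR372 (0.131 to 0.759). Counting error is all that these intervals and limits cover, since reads without molecular identifiers can be copies of 1 molecule.

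**Figure D2:**
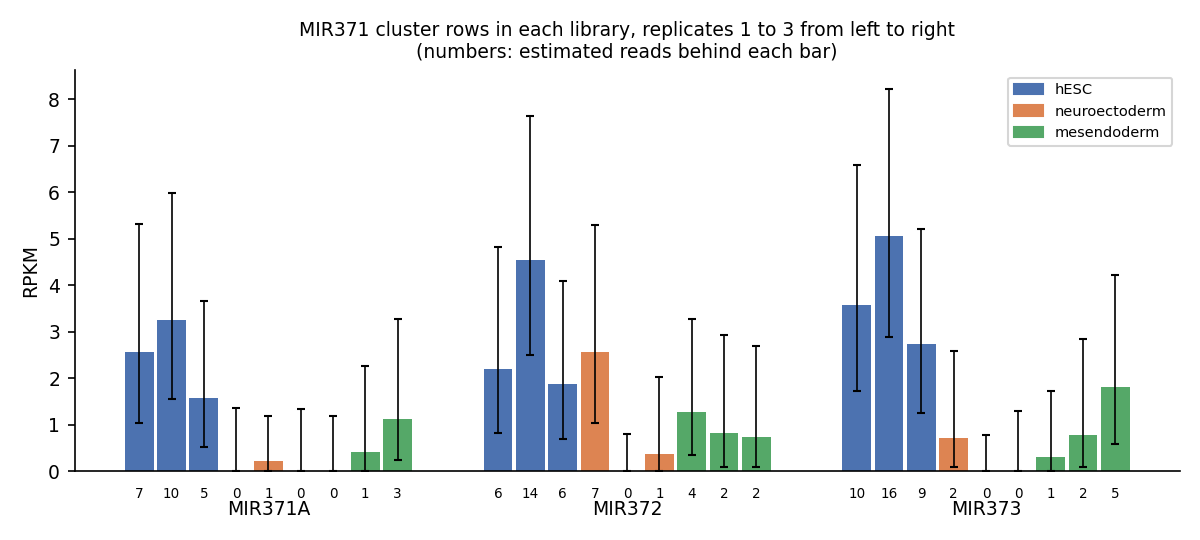
RPKM of the 3 MIR371 cluster rows in each library, replicates 1 to 3 from left to right within a colour, with exact 95% counting intervals and the estimated reads under each bar. No bar rests on more than 16 reads, and for MIR372 the first neuroectoderm bar (7 reads) is as high as hESC.

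The first comparison set neuroectoderm against hESC. Changes are differences of log2(RPKM + 1) ± SE from a limma model over all 9 libraries, with Benjamini-Hochberg adjusted p-values over all 14473 genes and a threshold of 0.05; this scale understates changes of low rows. MIR371A fell by 1.67 ± 0.27 (adjusted p = 0.00109) and MIR373 fell by 1.97 ± 0.32 (adjusted p = 0.000991). These were the 2 of 8 members called, both lower, where 22.3% of all genes and 11.4% of 369 microRNA rows were called lower and 21.9% and 3.79% higher. For the same 2 members the groups did not overlap, as for 26.5% of all genes in the lower direction. MIR371A passed the minimum for testing through hESC, with means of 2.46 RPKM there, 0.07 in neuroectoderm and 0.507 in mesendoderm. Its calls against hESC, here and in mesendoderm, are limited by that. MIR373 had a mean of 0.237 RPKM in neuroectoderm. The rows of the MIR302 cluster were not called. Their differences were -1.51 ± 0.84 for MIR302A, -1.48 ± 0.96 for MIR302B, -2.09 ± 0.90 for MIR302C, -1.80 ± 0.92 for MIR302D and -2.04 ± 0.89 for MIR367, with adjusted p-values of 0.0893 to 0.246. MIR372 was at -1.13 ± 0.44 (adjusted p = 0.0630). The median of the 8 members was -1.73, beside -0.32 over microRNA rows and -0.02 over all genes.

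A fit without neuroectoderm replicate 1 called all 8 members lower in neuroectoderm. In that fit the differences of the MIR302 cluster were -2.58 ± 0.51 for MIR302A, -2.69 ± 0.56 for MIR302B, -3.24 ± 0.52 for MIR302C, -2.98 ± 0.52 for MIR302D and -3.04 ± 0.66 for MIR367, with limma adjusted p-values of 0.00101 to 0.00498. MIR372 was then at -1.67 ± 0.28 (adjusted p = 0.00124). Leaving out any other library kept the count at 2. Without neuroectoderm replicate 2, the lowest of its group, the MIR302 cluster differences shrank to between -0.35 and -1.10.

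Mesendoderm was compared with hESC, the same hESC libraries serving as controls. MIR302D fell by 3.29 ± 0.92 (adjusted p = 0.0225, limma), or 9.79-fold on the RPKM + 1 scale, MIR302C fell by 2.87 ± 0.90 (adjusted p = 0.0351) and MIR302A fell by 2.49 ± 0.84 (adjusted p = 0.0483). Of the other cluster, MIR371A fell by 1.24 ± 0.27 (adjusted p = 0.00735) and MIR373 fell by 1.33 ± 0.32 (adjusted p = 0.0109). MIR302B (-2.65 ± 0.96, adjusted p = 0.0601), MIR367 (-2.39 ± 0.89, adjusted p = 0.0663) and MIR372 (-0.94 ± 0.44, adjusted p = 0.128) did not pass. Thus 5 of 8 members were called lower, where 18.1% of all genes and 28.7% of microRNA rows were called lower and 17% and 3.52% higher. For all 8 members every mesendoderm library lay below every hESC library, as for 28.7% of all genes. The median of the members was -2.44, beside -0.86 over microRNA rows and -0.02 over all genes.

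These calls depended on single libraries, those of neuroectoderm included, as the fit uses 1 estimate of the spread for all groups. Without hESC replicate 1, hESC replicate 2 or any 1 of the mesendoderm libraries, MIR302A, MIR302C and MIR302D were not called, with adjusted p-values of 0.0559 to 0.142, and the 2 members MIR371A and MIR373 stayed. Without hESC replicate 3 or neuroectoderm replicate 3, MIR302A and MIR302C were not called (adjusted p = 0.0514 to 0.0731). Without neuroectoderm replicate 1, or with only the libraries of hESC and mesendoderm in the fit, all 8 members were called, and without neuroectoderm replicate 2 all but MIR372. With 1 library left out, the differences of MIR302A, MIR302C and MIR302D lay between -3.61 and -2.13.

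**Figure D3:**
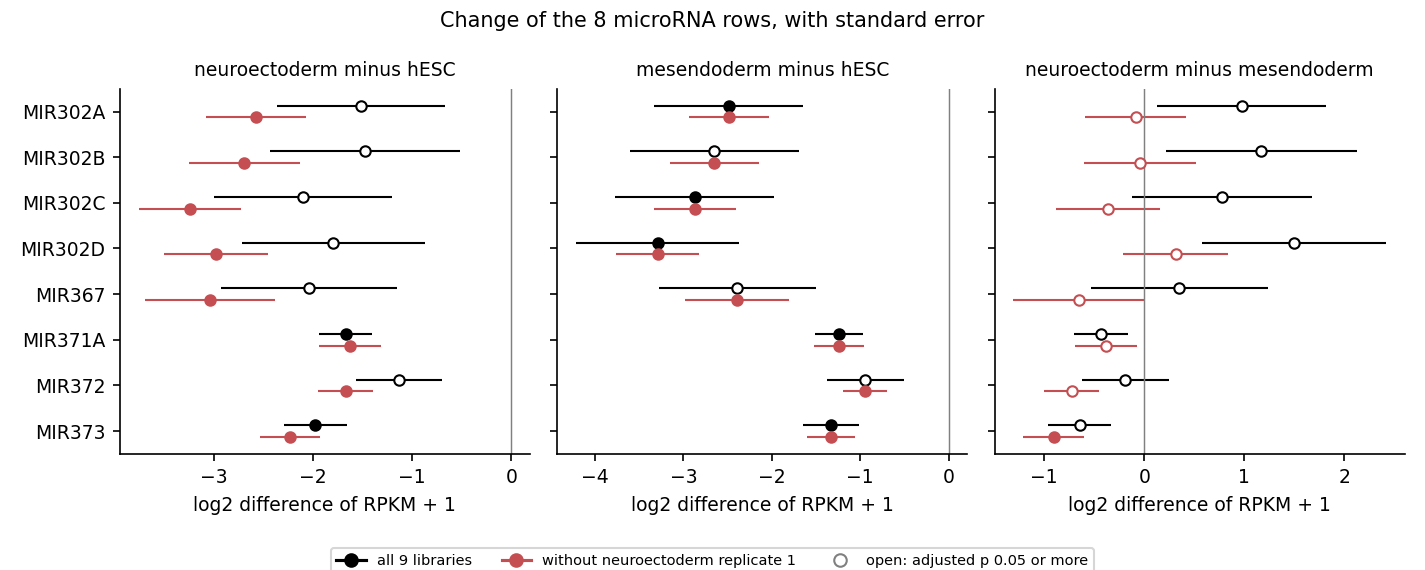
Difference of log2(RPKM + 1) with its SE for the 8 members in the 3 comparisons, from all 9 libraries (black) and without neuroectoderm replicate 1 (red); filled points have a limma adjusted p under 0.05. In neuroectoderm minus hESC the MIR302 cluster moves from -1.48 to -2.09 with all libraries to -2.58 to -3.24 without that library, and in mesendoderm minus hESC the estimates stay in place while the errors of the MIR302 cluster shrink.

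Neuroectoderm and mesendoderm were also compared directly. The limma fit called 0 of 8 members, and 0 had an unadjusted p under 0.05, where 24.1% of all genes were called lower in neuroectoderm and 24% higher, and 5.15% and 13.6% of microRNA rows. For 0 of 8 members the groups were apart in either direction. Over all genes this was counted in the lower direction only, where 29.4% were apart. That share is no measure for the MIR302 rows, whose estimates were higher in neuroectoderm. The MIR302 cluster was higher in neuroectoderm by 0.35 to 1.496 with all libraries and SE of 0.84 to 0.96, and without neuroectoderm replicate 1 the estimates of MIR302A, MIR302B, MIR302C and MIR367 lay below 0, at -0.09, -0.04, -0.36 and -0.65. MIR302A, MIR302B and MIR302D were called higher in neuroectoderm only without its replicate 2 (adjusted p = 0.0381, 0.0244 and 0.0187). The MIR371 rows had differences of -0.19 to -0.65, and MIR373 was called lower in neuroectoderm without its replicate 1 (-0.90 ± 0.30, adjusted p = 0.0346).

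The proportions of the 5 MIR302 cluster rows were set side by side between groups, a description chosen after values were seen. Groups did not overlap for 2 of the 5 rows between neuroectoderm and hESC, 3 of 5 between mesendoderm and hESC and 2 of 5 between the differentiated groups. The 5 shares of a library add up to the whole, so 1 lower share raises others. No difference passed after adjustment over the 15 comparisons, and none could, as an exact permutation p cannot fall below 0.1 here. In all 3 hESC libraries and in neuroectoderm replicate 1 the order from high to low was MIR302D, MIR302B, MIR302C, MIR302A and MIR367. MIR302A stood above MIR302C in neuroectoderm replicates 2 and 3, and MIR302B was the highest row in all 3 mesendoderm libraries. MIR302D held 37.3%, 36.0% and 36.3% of the summed RPKM of the cluster in hESC, 35.4%, 35% and 33.6% in neuroectoderm and 24.9%, 28.0% and 28.9% in mesendoderm. For this row the 3 groups did not overlap. The share was 9.28 percentage points lower in mesendoderm than in hESC, with a 2-sided exact permutation p of 0.1, the smallest that 3 against 3 libraries can give, and 0.214 after Benjamini-Hochberg adjustment over 15 such comparisons.

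MIR302B held 24.9% to 27.9% of the cluster in hESC, 27.9% to 33.5% in neuroectoderm and 30% to 31.9% in mesendoderm. The ratio of MIR302D to MIR302B was 1.34, 1.44 and 1.36 in hESC, 1.06, 1.26 and 1.02 in neuroectoderm and 0.829, 0.878 and 0.946 in mesendoderm. In mesendoderm replicate 3, for example, the ratio rests on 422 reads of MIR302D and 480 of MIR302B. The groups thus ran in the order hESC, neuroectoderm, mesendoderm with no overlap, and neuroectoderm replicate 1, whose levels were within or above the hESC range, lay with its own group. MIR302C held 19.7% to 22.1% in hESC and 15.2% to 17.2% in neuroectoderm, and in mesendoderm it ranged from 17% to 25.9%, across both. Since reads of these hairpins can match each other, the shares also carry how such reads were assigned.

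**Figure D4:**
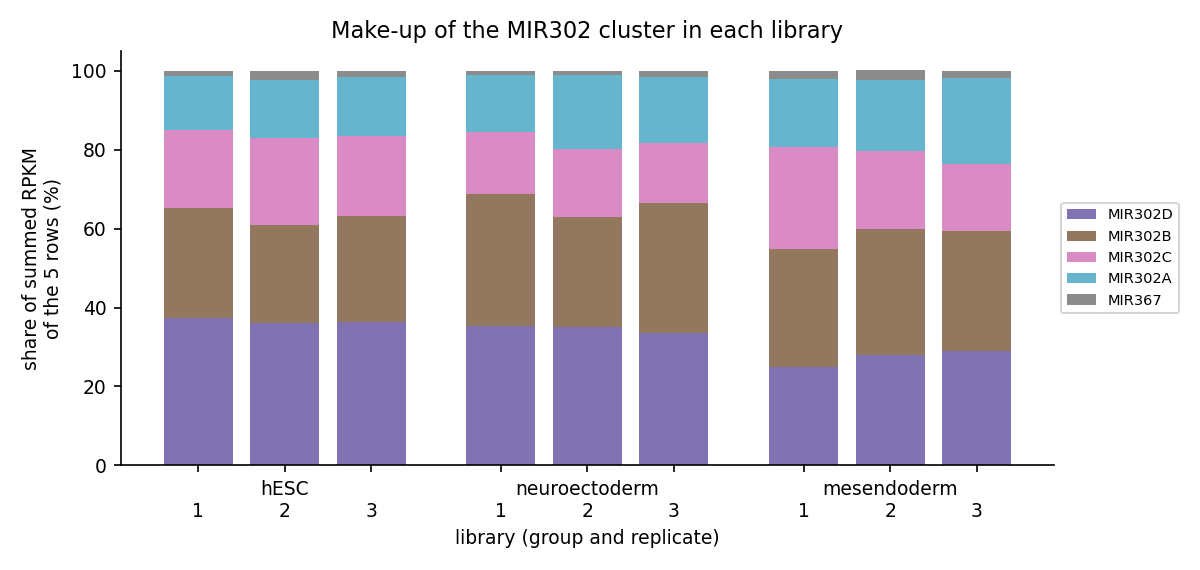
Share of the summed RPKM of the 5 MIR302 cluster rows held by each row, in percent, as 1 stacked bar per library. The MIR302D part at the base is 36.0% to 37.3% in hESC, 33.6% to 35.4% in neuroectoderm and 24.9% to 28.9% in mesendoderm.

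The miR-17 family clusters, which promote proliferation in many tissues, were taken as a second set, with 15 microRNA rows and the host transcript MIR17HG. Means in hESC ran from 4.79 RPKM for MIR19B2 to 352 for MIR18A. Of 16 rows, 8 fell in mesendoderm and 0 rose (median -2.48). Of all tested microRNA rows, 28.7% fell and 3.52% rose in mesendoderm, and 11.4% fell and 3.79% rose in neuroectoderm. In neuroectoderm against hESC limma called 0 of 16 (median -0.37), and without neuroectoderm replicate 1 it called 8 lower. In mesendoderm 14 were called lower without neuroectoderm replicate 1, 13 without its replicate 2, 5 without its replicate 3, 4 without hESC replicate 3, and 1 or 2 without any other library. MIR18B, with the largest fall in mesendoderm (-3.46 ± 0.81, adjusted p = 0.0103), was at 48.9, 53.7 and 32.0 RPKM in hESC, 135, 7.27 and 29.4 in neuroectoderm and 2.42, 4.21 and 2.82 in mesendoderm. Like the MIR302 rows, it was highest in neuroectoderm replicate 1 and lowest of that group in replicate 2. Against mesendoderm, 6 rows were higher in neuroectoderm and 0 lower, beside 13.6% and 5.15% of all tested microRNA rows. In this family 15 were higher without neuroectoderm replicate 2 and 4 without mesendoderm replicate 2. MIR20B was higher by 3.43 ± 1.03 (adjusted p = 0.0230, limma) and MIR106A by 3.25 ± 0.86 (adjusted p = 0.0126).

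The MIR302 cluster was also set against this family within each library. The summed RPKM of the cluster was 2.86, 2.90 and 2.93 times that of 15 miR-17 family microRNA rows in hESC, 1.32, 1.13 and 1.498 times in neuroectoderm and 2.59, 3.18 and 2.75 times in mesendoderm. All 3 neuroectoderm libraries, replicate 1 among them, lay below all libraries of the other groups, while hESC and mesendoderm overlapped in this ratio of sums, which the most abundant rows dominate. With every row given equal weight, as the mean log2(RPKM + 1) of the cluster minus that of the family, the difference was 3.55, 3.68 and 3.37 in hESC, 2.45, 1.58 and 2.16 in neuroectoderm and 2.90, 3.16 and 2.97 in mesendoderm. Neuroectoderm was again lowest, and mesendoderm lay below all 3 hESC libraries. Both measures were chosen after values were seen and were not tested, and they are relative: a library can move in them through either set of rows. Of all microRNA rows, the 8 members held 26.0%, 26.4% and 20.4% of the summed RPKM in hESC, 19.9%, 3.52% and 9.30% in neuroectoderm and 5.75%, 6.19% and 6.28% in mesendoderm.

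**Figure D5:**
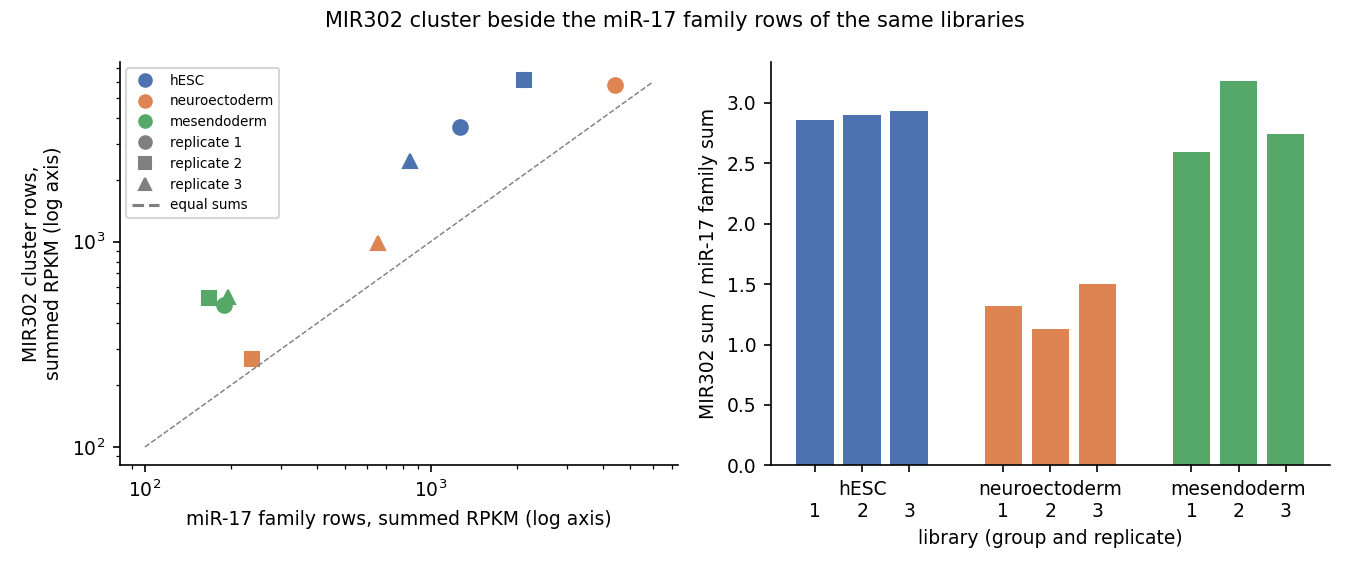
Left, summed RPKM of the MIR302 cluster against that of 15 miR-17 family rows in each library, both on log axes, with a dashed line of equal sums; right, the ratio of the 2 sums. The neuroectoderm libraries lie along the dashed line at ratios of 1.13 to 1.498 over their whole range of levels, and the hESC and mesendoderm libraries at 2.59 to 3.18.

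Other genes with a member's seed were read from the RefSeq table. With AAGUGCU, the seed of 6 members, 3 further genes were in the deposited table, all of the primate cluster C19MC beside the MIR371 cluster. Their mature strands show that the match to the MIR302 and MIR371 families ends soon after the seed.
miR-520c-3p: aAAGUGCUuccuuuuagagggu
miR-520d-3p: aAAGUGCUucucuuuggugggu
miR-520e-3p: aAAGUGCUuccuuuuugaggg
MIR520C was at 14.4, 31.3 and 6.29 RPKM in hESC, 2.54, 0.16 and 0.27 in neuroectoderm and 0.49, 0.31 and 0.57 in mesendoderm, and fell in both, with differences of -3.15 ± 0.55 (adjusted p = 0.00163) and -3.40 ± 0.55 (adjusted p = 0.00141). MIR520E fell too, at -1.64 ± 0.47 in neuroectoderm and -1.60 ± 0.47 in mesendoderm (adjusted p = 0.0203 and 0.0280). Of these 2 rows, 1 was called lower in neuroectoderm without its replicate 3, and 1 in mesendoderm without hESC replicate 1 or mesendoderm replicate 1 or 3. MIR520D lay under the minimum for testing. MIR520E passed it through hESC, with means of 3.33 RPKM there, 0.147 in neuroectoderm and 0.207 in mesendoderm.

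Of 13 tested C19MC microRNAs, a cluster known from placenta, 9 fell in neuroectoderm (median -1.35) and 11 in mesendoderm (median -1.58), with 0 higher, and limma called 0 between the differentiated groups. With 1 library left out, 8 to 13 and 8 to 12 were called lower against hESC. Of all tested microRNA rows, 11.4% were called lower in neuroectoderm and 28.7% in mesendoderm. The minimum was a mean over all 9 libraries, and most of the 13 passed it only through hESC. MIR522, for example, was at a mean of 1.74 RPKM there and 0 in the other groups. Such rows could hardly rise, so these counts and medians say little about direction. The differences were -2.75 ± 0.49 and -3.13 ± 0.49 for MIR520F, -2.60 ± 0.46 and -2.19 ± 0.46 for MIR520G, and -2.20 ± 0.36 and -2.11 ± 0.36 for MIR519D, each from means of 4.47 to 12.5 RPKM in hESC. The genes of this cluster are near copies of each other, so the reads of a single row are uncertain. With AUUGCAC, the seed of MIR367, 6 further genes were tested. Of these, MIR25, MIR363, MIR92A1 and MIR92A2 were also among the miR-17 family rows above, so the 2 sets are not separate. MIR92B fell in mesendoderm by 3.70 ± 0.91 (adjusted p = 0.0124), from 21.0, 41.6 and 16.7 RPKM to 0, 2.26 and 1.30, and limma called 0 of the 6 in neuroectoderm. MIR92A2, MIR92B and MIR363 were higher in neuroectoderm than in mesendoderm, by 1.69 ± 0.34, 3.98 ± 0.91 and 2.22 ± 0.71. Of all tested microRNA rows, 13.6% were higher in that comparison. All 6 genes with this seed were higher without neuroectoderm replicate 2. Without neuroectoderm replicate 1 or 2, 4 of the 6 were called lower in mesendoderm. MIR25 (17.7 ± 3.40 against 9.42 ± 2.84 RPKM, SD, n = 3) was not called in mesendoderm against hESC.

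Of the genes that hold or flank the clusters, 4 were in the table and tested. LARP7, across whose introns the MIR302 hairpins lie on the other strand, rose against hESC in both groups. The MIR302 estimates were lower in both, with calls in mesendoderm only. LARP7 was at 9.91, 7.56 and 8.63 RPKM in hESC, 18.0, 18.8 and 19.8 in neuroectoderm and 14.8, 13.6 and 14.6 in mesendoderm, with no overlap between groups. It rose by 1.04 ± 0.11 in neuroectoderm (adjusted p = 8.51e-05, limma) and by 0.67 ± 0.11 in mesendoderm (adjusted p = 0.00169). Between the differentiated groups it was higher in neuroectoderm by 0.37 ± 0.11 (adjusted p = 0.0217, limma). The MIR302 estimates lay in that direction too, with no row called. Unlike the microRNA rows, LARP7 was even among the neuroectoderm libraries. ANK2, which codes for an ankyrin of the membrane skeleton, rose in neuroectoderm (1.21 ± 0.11) and fell in mesendoderm (-0.46 ± 0.11). ZGRF1, listed under its older symbol C4orf21, had differences of -0.07 ± 0.14 and 0.12 ± 0.14, and NLRP12, beside the MIR371 cluster, of -0.38 ± 0.17 and -0.05 ± 0.17. With libraries scaled to their small RNA total, 1 of the 4 was called in neuroectoderm, higher, and 0 in mesendoderm. The host transcript MIR302CHG was not analysed here.

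Among 20 genes that process, load or act with microRNAs, 6 rose and 4 fell in neuroectoderm, and 1 rose and 5 fell in mesendoderm. Of all genes, 21.9% rose and 22.3% fell in neuroectoderm, and 17% rose and 18.1% fell in mesendoderm. In neuroectoderm AGO4 rose by 0.995 ± 0.09 while AGO2, the Argonaute that can cut its targets, fell by 0.81 ± 0.13, from 21.0 ± 1.78 to 11.6 ± 1.96 RPKM (SD, n = 3). TRIM71, a ubiquitin ligase of early embryonic cells, fell by 0.63 ± 0.22, and ZCCHC11 (TUT4), which adds uridines to microRNA precursors, rose by 0.59 ± 0.13. In mesendoderm LIN28A, which blocks the maturation of let-7, fell by 0.81 ± 0.15, from 307 ± 31.4 to 174 ± 2.06 RPKM. TNRC6A and TNRC6C, silencing partners of the Argonautes, fell too, at -0.75 ± 0.10 and -0.72 ± 0.13, and AGO4 rose by 0.75 ± 0.09.

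DROSHA was at 23.1 ± 1.31, 23.0 ± 2.40 and 18.2 ± 0.501 RPKM in hESC, neuroectoderm and mesendoderm and fell in mesendoderm (-0.33 ± 0.11, adjusted p = 0.0459), DGCR8 was at 18.95, 19.11 and 16.45, and DICER1 at 12.3, 13.1 and 11.9, neither called against hESC. Against mesendoderm, neuroectoderm had 10 genes of the list higher and 2 lower, beside 24% and 24.1% of all genes. TNRC6C differed by 1.01 ± 0.13 and AGO2 by -0.85 ± 0.13. In that comparison 5 to 11 were higher with 1 library left out (5 without mesendoderm replicate 2 or 3), and 0 were higher and 1 lower with libraries scaled to their small RNA total or to microRNA rows other than the members. Against hESC with 1 library left out, 3 to 7 rose in neuroectoderm (3 without hESC replicate 1, hESC replicate 3 or neuroectoderm replicate 3) and 1 to 4 fell. These counts also depend on the scale. With libraries scaled to their small RNA total, 1 gene rose and 0 fell in each of neuroectoderm and mesendoderm. Scaled to microRNA rows other than the members, 1 rose in neuroectoderm and 2 in mesendoderm and 0 fell.

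A list of 20 genes reported as targets of these microRNA families, written from general knowledge and not checked for sites here, moved in both directions. Of 19 tested, 6 rose and 5 fell in neuroectoderm (median 0.31) and 7 rose and 4 fell in mesendoderm (median 0.21). Of all genes, 21.9% rose and 22.3% fell in neuroectoderm, and 17% rose and 18.1% fell in mesendoderm (median -0.02 in both). With libraries scaled to their small RNA total the counts of the list were 3 and 2 in neuroectoderm and 5 and 0 in mesendoderm. Without hESC replicate 1, hESC replicate 3 or mesendoderm replicate 3 only 2 of the list fell in mesendoderm. In neuroectoderm NR2F2, a nuclear receptor of later neural and mesodermal tissue, rose by 4.99 ± 0.18, from 0.01, 0.04 and 0.04 to 22.8, 36.8 and 37.9 RPKM. TXNIP, an inhibitor of thioredoxin, rose by 4.02 ± 0.17 and the polycomb gene BMI1 by 1.70 ± 0.16, while LEFTY1, an inhibitor of Nodal, fell by 1.48 ± 0.23. In mesendoderm the cell cycle inhibitor CDKN1A rose by 2.94 ± 0.15, from 2.72, 2.69 and 2.40 to 25.4, 24.6 and 30.3 RPKM. RHOC, a small GTPase of the cytoskeleton, rose by 1.96 ± 0.32, NR2F2 by 1.005 ± 0.18, and SLAIN1, a microtubule protein, fell by 0.97 ± 0.13. RBL2, a pocket protein of the retinoblastoma family, was not called in either (0.38 ± 0.14 and 0.21 ± 0.14).

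Lineage microRNAs were low. Of 10 tested, 1 rose and 1 fell in neuroectoderm, beside 3.79% and 11.4% of all tested microRNA rows. In mesendoderm 0 rose and 3 fell, beside 3.52% and 28.7%. Without neuroectoderm replicate 1, 4 and 8 fell, and without mesendoderm replicate 1, 2 fell in mesendoderm. MIR124-2, a gene of the neuronal microRNA miR-124, rose by 1.80 ± 0.19 in neuroectoderm, from 0.45, 0.40 and 0.19 to 5.42, 2.63 and 3.34 RPKM. It passed the minimum for testing through neuroectoderm, with means of 0.347 RPKM in hESC and 0 in mesendoderm, so its call is limited by that. MIR124-1, at 2.02, 2.30 and 1.48 RPKM in hESC, was listed at 0 in all 6 other libraries, so it passed the minimum for testing through hESC alone. The let-7 genes MIRLET7D and MIRLET7I fell in mesendoderm, at -2.03 ± 0.51 and -1.26 ± 0.30.

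Across the 9 libraries the MIR302 rows followed each other closely. Pearson correlations of log2(RPKM + 1) among MIR302A to MIR302D and MIR367 were 0.948 to 0.995, as a description over 9 libraries. Differences between groups and between libraries that the rows have in common enter these values. MIR371A and MIR373 correlated with each other at 0.951. MIR372 correlated at 0.855 to 0.948 with the MIR302 cluster and at 0.607 and 0.784 with MIR371A and MIR373, with 7 of its 8 neuroectoderm reads in replicate 1.

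Among 9232 genes other than small RNA, those with a pattern most like the mean of the MIR302 cluster were BLM (r = 0.965), a DNA helicase, DBF4 (0.958), which activates the replication kinase CDC7, SYNJ2BP (0.955), FBXO28 (0.952) and MLF1IP (0.952), a centromere protein. BLM was at 13.5, 18.2 and 13.2 RPKM in hESC, 14.8, 9.06 and 11.1 in neuroectoderm and 9.33, 9.39 and 8.92 in mesendoderm, so it too was highest in neuroectoderm replicate 1 of its group and in hESC replicate 2 of all libraries. Most like the MIR371 cluster were AGPAT5 (0.974), an acyltransferase of phospholipid synthesis, GINS1 (0.972), a part of the replication helicase, OCLN (0.972), a protein of tight junctions, PWARSN (0.965) and ABCE1 (0.964), which recycles ribosomes. AGPAT5 was at 19.9, 24.9 and 19.9 RPKM in hESC, 14.6, 10.4 and 10.3 in neuroectoderm and 12.1, 14.1 and 13.2 in mesendoderm. These genes were picked for likeness from many over 9 libraries, so the values carry no test.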

How the data were processed

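Total RNA of 9 libraries, depleted of ribosomal RNA, was sequenced with an Ion Torrent kit, per the labels' protocols. The authors deposited RPKM values of 38759 transcripts. TopHat, TopHat2 2.0.13, Bowtie2 and hg19 come from the submitters' processing notes. The tool and strand used in counting, and the treatment of multiply mapped reads, are not given there. Each symbol was represented by its transcript with the highest mean. Genes whose mean reached 0.5 RPKM were fitted as log2(RPKM + 1) in limma 3.58.1 (R 4.3.3), with group as term, a mean-variance trend and Benjamini-Hochberg adjustment, by a script tested on simulated data. Count models do not suit RPKM. Named are the members, abundant genes with their seeds, neighbours, in each list at most 4 genes by size of change among those called, and the 5 genes most like each cluster; CGA, DROSHA, DGCR8, DICER1 and RBL2 were added after their values were seen. The members and lists were chosen with earlier results of these data known. Shares within the cluster, ratios to MIR302B and to the miR-17 family, and list counts under alternatives were chosen after seeing the data.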

Additional observations from a re-analysis of the deposited data

How the results depend on the processing

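With a minimum mean of 2 RPKM, which leaves MIR371A, MIR372 and MIR373 untested, 0 members were called in neuroectoderm and 2 in mesendoderm against hESC. With libraries scaled to their small RNA total, 5 were called in neuroectoderm against hESC and 1 against mesendoderm, and MIR367 turned to -0.059 in the latter. With only the 2 groups compared, mesendoderm against hESC gave 8, and with only microRNA rows 3. Without hESC replicate 2, neuroectoderm replicate 1 and mesendoderm replicate 1, 8, 8 and 2 were called in neuroectoderm and mesendoderm against hESC and between them, and MIR302A, MIR302B, MIR302C and MIR367 turned to -0.191, -0.105, -0.244 and -0.697 in the last. Leaving out 1 library gave 2 to 8, 2 to 8 and 0 to 3 calls. In the last comparison it took MIR302A from -0.087 to 1.933, MIR302B from -0.042 to 2.304, MIR302C from -0.364 to 1.769, MIR367 from -0.65 to 1.361 (each without neuroectoderm replicate 1 and 2) and MIR372 from -0.726 to 0.192 (likewise). A scale over microRNA rows other than the members, chosen after seeing the data, gave 1 call between neuroectoderm and mesendoderm, with MIR367 at -0.183, and put the median of all genes at 0.237, 0.678 and -0.435 in the 3 comparisons, against -0.02, -0.02 and -0.01 as reported; the small RNA total put it at -0.0639, 0.259 and -0.322. In mesendoderm against hESC the scale over microRNA rows took MIR302A to -1.645 (adjusted p = 0.0543, limma), no longer called. There MIR302D went to -2.446 and MIR373 to -0.812, both still called (adjusted p = 0.0137 and 0.0468). In neuroectoderm against hESC it added a call of MIR372 (-1.034, adjusted p = 0.0267). The causes were not tested, save that fewer libraries or genes entered.

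With the replicate number as a block, 2, 4 and 0 members were called. Same-numbered libraries deviated together in 4 of 9 pairs by a correlation over 0.1 (-0.738 to 0.401), so the numbers were not read as pairs. Over the alternatives run, 0 member differences against hESC changed sign. Depth limits the MIR371 rows, at 0 to 16 reads each.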
